A study of Rattus norvegicus with 547 samples.

Results

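The 5 probe sets 1368174_at (Egln3), 1370081_a_at (Vegfa), 1370848_at (Slc2a1), 1387219_at (Adm) and 1383519_at (Hk2) stood for a small set of genes known to be induced by low oxygen. They were chosen by ID, with the gene names that came with the choice, and make up 5 of the 31042 probe sets tested. No table used here pairs probe sets with genes, so the names could not be checked, all 5 IDs were kept, and every other probe set is given by its ID.

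In well-oxygenated cells prolyl hydroxylases mark the alpha subunit of hypoxia-inducible factor (HIF) for destruction, and in low oxygen HIF persists and switches on its targets. Egln3 encodes 1 of these prolyl hydroxylases and is itself a HIF target, so it acts as a brake on the pathway. Vegfa encodes the main growth factor for blood vessels, Adm the vasodilator peptide adrenomedullin, Slc2a1 the glucose transporter GLUT1 and Hk2 hexokinase 2, which traps glucose in the cell. In liver, oxygen falls along the sinusoid, and cultured hepatocytes are known to use oxygen quickly.

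The cells were hepatocytes of male Wistar rats kept as sandwich cultures in 6-well dishes, and their RNA was hybridized to arrays of 1 colour. There were 547 arrays, of which 34 came from cells at the start of incubation without solvent or compound (T0), 256 from solvent controls and 257 from cells incubated for 24 h with 1 of 29 compounds. Compounds were given at a low, a middle and a high level, which made 86 comparisons of treated with control arrays (dehydroepiandrosterone at its high level is not analysed here). By the submitters' class labels 9 compounds were genotoxic (GT), 11 non-genotoxic (NG) and 9 non-carcinogens (NC). The labels were used as given, and whether a compound is a carcinogen was not checked. The NC class includes 3-methylcholanthrene. Groups had 3 arrays, apart from 2 controls for prazosin high and 2 arrays in either group of 3-methylcholanthrene high. By the design text the replicates were 3 rats on different days, and the treated and control wells of a replicate shared a dish. No marker of hepatocytes or of other liver cells could be checked without gene names. In bulk RNA of this kind fewer cells of a type and less RNA per cell cannot be told apart.

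All values are RMA levels on the log2 scale, so a difference of 1 is a doubling, and the levels of different probe sets are not comparable with one another. Array medians ran from 5.24 to 5.76, and 145 arrays, 11 of them T0, had medians under 5.4; these are called the lower-median arrays below. What produced the lower medians was not tested. Correlation with the other arrays was lowest for 4 arrays: replicate 1 of treated acetaminophen high, with a median correlation of 0.307, replicate 1 of the dehydroepiandrosterone middle controls, replicate 2 of the N-nitrosopiperidine high controls and T0 replicate 19. The spike-in signal was missing on 16 arrays, 1 of them among these 4. Precision is limited by the number of arrays in a group.

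The windows 250 bases upstream of the transcription starts in a RefSeq promoter table (build GRCr8) are shown for the 3 members whose levels lay closest together across the control cultures, with the HIF core motifs ACGTG and GCGTG on either strand in capitals. On the reverse strand these read CACGT and CACGC, and ACGTG overlaps its own complement where a C precedes it.
Egln3 (chr6:77411016-77411265, minus strand): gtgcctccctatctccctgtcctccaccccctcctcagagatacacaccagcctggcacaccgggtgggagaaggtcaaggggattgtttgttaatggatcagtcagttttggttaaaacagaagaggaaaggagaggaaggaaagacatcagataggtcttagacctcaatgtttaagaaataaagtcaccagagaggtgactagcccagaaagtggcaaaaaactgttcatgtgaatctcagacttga
Adm (chr1:174179950-174180199, plus strand): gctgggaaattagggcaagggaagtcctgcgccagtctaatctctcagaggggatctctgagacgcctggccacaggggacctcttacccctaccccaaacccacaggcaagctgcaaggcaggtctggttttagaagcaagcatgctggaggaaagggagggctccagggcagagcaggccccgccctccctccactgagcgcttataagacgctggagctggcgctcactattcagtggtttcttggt
Slc2a1 (chr5:138002272-138002521, plus strand): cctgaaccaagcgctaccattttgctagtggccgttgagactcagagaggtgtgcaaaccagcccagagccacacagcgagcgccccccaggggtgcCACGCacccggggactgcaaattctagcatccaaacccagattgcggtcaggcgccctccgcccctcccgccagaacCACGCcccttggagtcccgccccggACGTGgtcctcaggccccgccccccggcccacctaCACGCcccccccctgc
The Slc2a1 window held 4 matches, at 153, 76, 51 and 16 bases before the start, 3 of GCGTG and 1 of ACGTG. The windows of Egln3, Adm and Hk2 and both listed windows of Vegfa held none. The Adm window and the second Vegfa window lie inside the annotated genes, and for Adm the bases before the outermost start of the gene (chr1:174164178-174182372) were not searched. Of 33469 promoter windows of the same length, 36.7% held at least 1 of the motifs (16.6% ACGTG and 25.9% GCGTG). A match is only a description of these letters, and the absence of one says nothing about sequence outside the window.

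At T0, before any treatment, Egln3 lay between 5.88 and 10.48 over 34 arrays, with a median of 7.89. In the solvent controls it lay between 5.22 and 9.85 over 256 arrays, with a median of 7.76. The ranges overlapped almost wholly. Each of the other members also overlapped between T0 and control, as the plot of levels on every array shows.

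**Figure D1:**
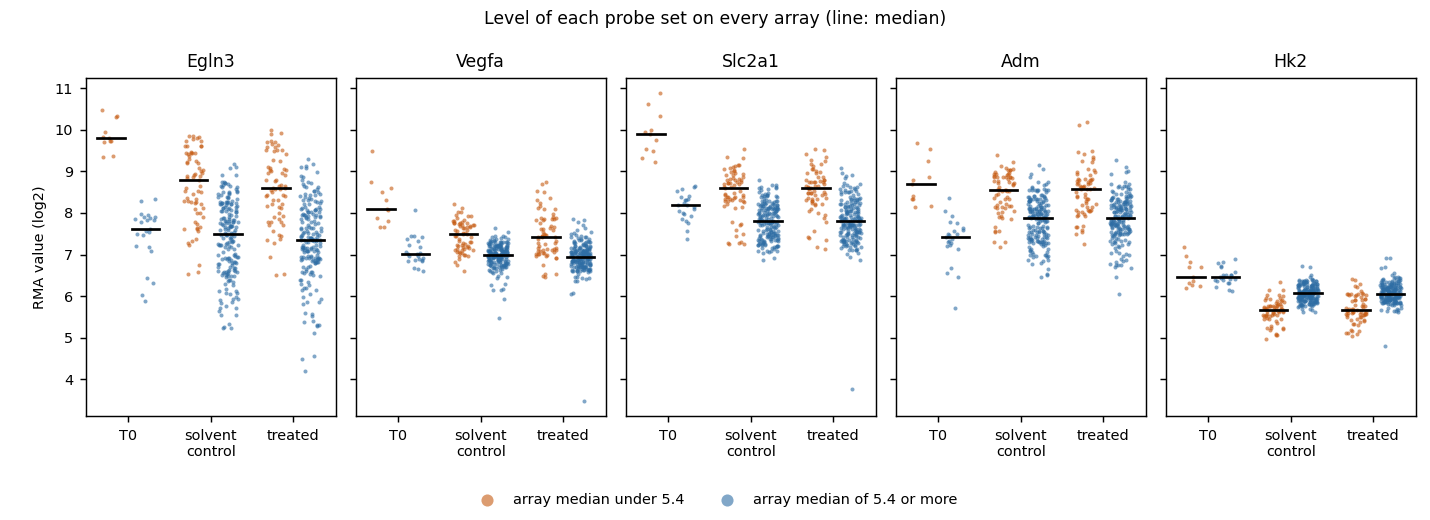
Level of each of the 5 probe sets on every array, as RMA values on a log2 axis, for T0, solvent control and treated cells, with lower-median arrays (median under 5.4) in orange and the others in blue, and a line at each median. At T0 the 11 lower-median arrays of Egln3 lie at 9.34 or above and the other 23 at 8.33 or below.

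Averaged over compounds and replicate numbers (n = 87 control values against 34 T0 arrays), 4 of the 5 members were lower in the controls than at T0, where 44.8% of all probe sets passed the same limma test and 21.4% fell. Hk2 fell by 0.55 (SE 0.05, adjusted p = 1.73e-18), from 6.51 ± 0.25 (SD) to 5.95 ± 0.25. Slc2a1 fell by 0.73 (SE 0.13, adjusted p = 1.16e-06). Vegfa fell by 0.36 (SE 0.09, adjusted p = 3.37e-04) and Egln3 by 0.53 (SE 0.21, adjusted p = 0.0354). Adm, the secreted vasodilator, was 0.19 higher in the controls (SE 0.13) and did not pass (adjusted p = 0.254). The control values of 1 compound resembled each other, which makes these p-values too small. With 1 control value per compound (n = 29), Egln3 no longer passed (adjusted p = 0.158), while Vegfa (0.0295), Slc2a1 (0.00146) and Hk2 (3.03e-11) did.

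The change from T0 depended on the array set. Among lower-median arrays (11 T0 against 28 control values), where 42.5% of all probe sets passed and 19.1% fell, Egln3 fell by 1.34 (SE 0.25, adjusted p = 2.74e-05), Slc2a1 by 1.49, Hk2 by 0.93 and Vegfa by 0.81, and Adm was 0.33 lower without passing (adjusted p = 0.126). Among the other arrays (23 against 69), where 57.2% passed, the Egln3 difference was -0.08 (SE 0.18, adjusted p = 0.719) and the Vegfa difference -0.13 (adjusted p = 0.0781). There Slc2a1 fell by 0.35 and Hk2 by 0.42, and Adm rose by 0.46 (SE 0.12, adjusted p = 4.79e-04). The pooled Adm value therefore averaged differences of opposite sign. Tested as an interaction, the difference between the array sets passed for all 5 members, from -0.52 for Hk2 to -1.26 for Egln3, as it did for 28.4% of all probe sets. Control values of 1 compound are not independent here either, so the p-values within the sets and of the interaction are too small. Within the sets, a compound and replicate number with arrays in both entered both. The fit with 1 control value per compound was run only on the pooled arrays. The labels tie no T0 array to a compound, so array set, rat and day cannot be told apart here.

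Egln3 was among the most variable probe sets of the solvent controls. Its SD over 256 control arrays was 1.05, at the 99.8th percentile of all probe sets. Adm had an SD of 0.60 (94.8th percentile), Slc2a1 0.55 (92.5th), Vegfa 0.37 (71.4th) and Hk2 0.29 (48.6th). The control mean of Egln3 ran from 5.85 in the dishes of diethylstilbestrol to 9.65 in those of allyl alcohol, a span of 3.80. That span between sets of untreated cultures was wider than the largest effect of any compound on Egln3, given below. Diethylstilbestrol dishes also had the lowest control means of Slc2a1 (7.18) and Adm (6.98). Allyl alcohol dishes had the highest Slc2a1 (9.02) and clonidine dishes the highest Adm (9.0), while Hk2 was lowest in the dishes of 1,4-dichlorobenzene (5.3) and highest in those of thioacetamide (6.34).

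In a variance model of the control arrays, 79.0% of the Egln3 variance lay between compounds, 3.85% between the levels of a compound and 0.50% between replicate numbers. The share between compounds was 83.9% for Slc2a1, 76.8% for Adm, 59.9% for Hk2 and 42.0% for Vegfa, and for each of these the share between replicate numbers was at most 0.535%. Control arrays of the same compound and replicate number at different levels were thus hardly more alike than those of different numbers. Treated and control arrays of the same dish were alike in Egln3: over 253 dishes without the 4 distant arrays, the deviations of both from their group means correlated at r = 0.62, against a median of 0.05 over all probe sets. The same value was 0.48 for Adm, 0.25 for Slc2a1, 0.18 for Hk2 and 0.12 for Vegfa.

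Egln3, Adm and Slc2a1 lay close together across the untreated cultures, and Hk2 stood apart when all compounds were pooled, though not within each array set (below). Over the control means of the 29 compounds, Egln3 and Adm correlated at r = 0.960 (rho = 0.952), Slc2a1 and Adm at r = 0.928 (rho = 0.918) and Egln3 and Slc2a1 at r = 0.905 (rho = 0.897). Vegfa correlated with Egln3 at r = 0.853 (rho = 0.803), with Adm at 0.795 (rho = 0.761) and with Slc2a1 at 0.739 (rho = 0.732). For these 6 of 10 pairs the two-sided permutation p of r was 1e-05, the smallest that 100000 resamples can give (adjusted over the pairs 1.67e-05), and the rank correlations had adjusted p-values of at most 5.00e-05. No pair with Hk2 passed over the 29 pooled compounds, with r from -0.37 to -0.15. Without the 2 compounds farthest from the median the 6 values of r were 0.733 to 0.951. The permutations treated the 29 compounds as exchangeable across both array sets, so their p-values do not speak to correlation within a set.

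**Figure D2:**
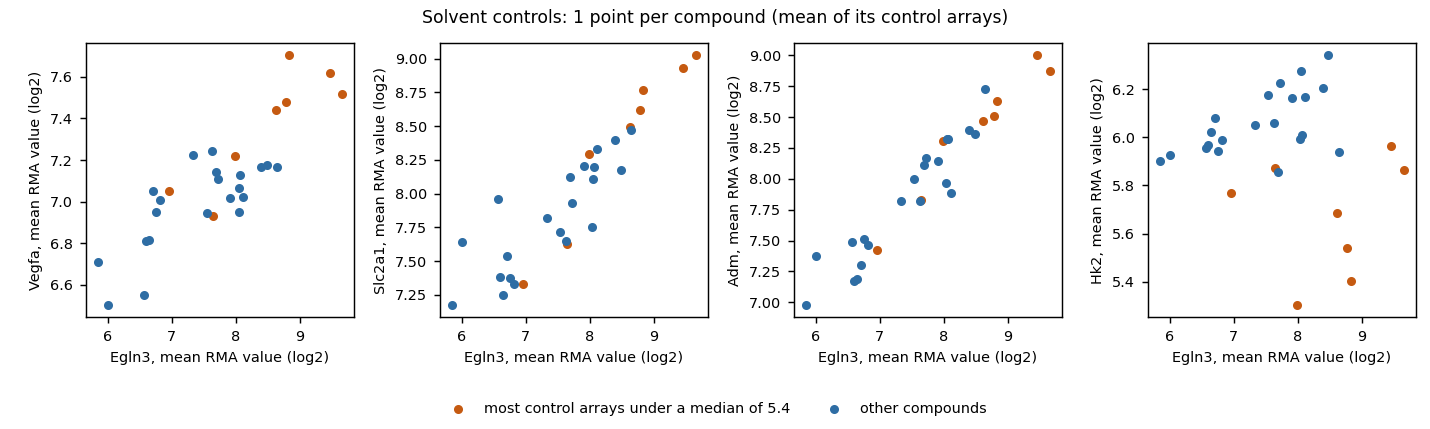
Mean control level (RMA, log2) of Vegfa, Slc2a1, Adm and Hk2 against that of Egln3, 1 point per compound, with compounds whose control arrays mostly had medians under 5.4 in orange. Slc2a1 and Adm rise with Egln3 in both sets (r = 0.836 and 0.939 over the 21 blue points). Hk2 does not follow Egln3 over all 29 points (r = -0.15), but gives r = 0.56 over the 21 blue and 0.16 over the 8 orange points.

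The array medians moved with these levels: over the 256 control arrays the correlation with the array median was -0.50 for Egln3, -0.58 for Vegfa, -0.47 for Slc2a1 and Adm, and 0.70 for Hk2. Within the 8 compounds of mostly lower-median controls Egln3 correlated with Adm at 0.975, and within the other 21 at 0.939. Egln3 and Slc2a1 gave 0.970 and 0.836, and Egln3 and Vegfa 0.865 and 0.763. Slc2a1 and Adm gave 0.988 and 0.881, Vegfa and Adm 0.889 and 0.658, and Vegfa and Slc2a1 0.921 and 0.448. Hk2 and Egln3 gave 0.16 and 0.56, both above the pooled value of -0.15. Over the 21 compounds Hk2 also gave 0.37 with Vegfa, 0.41 with Slc2a1 and 0.48 with Adm. Over the 8 it gave -0.13, -0.07 and 0.01. After quantile normalization, which gives every array the same distribution, the 3 pairs with Egln3 still gave 0.903 (Adm), 0.799 (Slc2a1) and 0.752 (Vegfa), while Vegfa and Slc2a1 gave 0.484.

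As a description of single arrays, deviations of the 256 control arrays from the mean of their compound and level correlated at 0.79 for Egln3 with Adm, 0.75 for Egln3 with Slc2a1 and 0.32 for Egln3 with Vegfa. These points share library, array and dish. In the whole list of 31041 other probe sets, ranked by correlation with Egln3 over the 29 control means, Adm stood at rank 2, Slc2a1 at rank 31, Vegfa at rank 119 and Hk2 at rank 15286. At T0 the arrays fell into separate clusters, so no pooled value is given. Egln3 and Slc2a1 correlated at 0.954 over the 11 lower-median T0 arrays and at 0.912 over the other 23, and Egln3 and Adm at 0.894 and 0.578. Egln3 and Vegfa gave 0.716 and 0.239, and Slc2a1 and Adm 0.961 and 0.415. Vegfa gave 0.800 and 0.531 with Slc2a1, and 0.692 and -0.149 with Adm. Hk2 gave 0.634 and 0.449 with Egln3, and 0.632 and 0.528 with Adm. With Slc2a1 it gave 0.653 and 0.337, and with Vegfa 0.510 and 0.105.

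Most member tests did not pass, though over all 86 comparisons the members passed at a higher share than all probe sets. The members were chosen with earlier results of these data known, so the higher share is not independent support. Their mean levels also stood at the 60.5th to 87.1th percentile of all probe sets, and no share over bright probe sets alone is given here. Of 430 tests (5 members in 86 comparisons) 29 passed at an adjusted p under 0.05, which is 6.74% against 2.73% of all probe sets over the same comparisons. They comprised 19 rises (all probe sets 1.25%) and 10 falls (all probe sets 1.48%), spread over 15 compounds and 18 comparisons. At the high level 24 of 140 passed, where 6.07% of all probe sets did, at the middle level 3 of 145 (0.803%) and at the low level 2 of 145 (1.44%). Egln3 accounted for 10 calls (4 rises, 6 falls) and Adm for 9 (7 rises, 2 falls). Slc2a1 had 3 rises and 1 fall, Hk2 2 rises and 1 fall, and Vegfa 3 rises. The median difference over all 86 comparisons was near 0 for each member, from -0.03 for Vegfa to 0.04 for Adm. In all 29 calls every dish moved the same way, and in 28 of them treated and control arrays did not overlap. The calls were picked by a small p over at most 3 dishes, so this follows largely from the selection and is no further support. The same counts over all called probe sets are not given here.

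**Figure D3:**
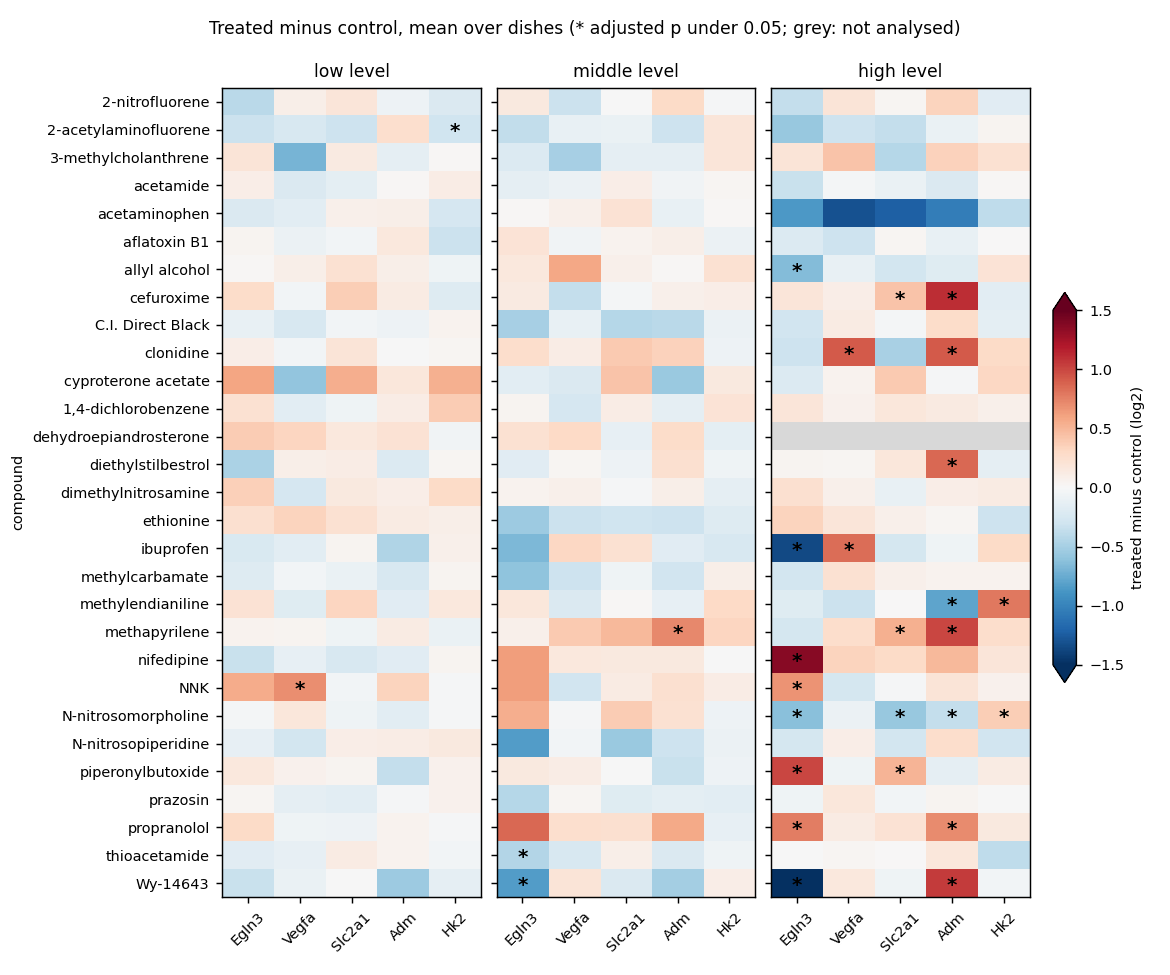
Treated minus control difference (log2, mean over dishes) of the 5 probe sets for each compound at its low, middle and high level, with red for higher and blue for lower in treated cells and an asterisk for an adjusted p under 0.05. Of the 29 asterisks 24 stand at the high level, and the blue bar of acetaminophen high, which has none, comes from replicate 1.

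Acetaminophen at 1000 uM had the lowest mean difference of Vegfa (-1.31), Slc2a1 (-1.22) and Adm (-1.04), none of which passed. In its replicate 1, whose treated array is the most distant of the series, the dish differences were -3.68, -4.73 and -2.66. In replicates 2 and 3 they were -0.05 and -0.20 for Vegfa, 0.64 and 0.42 for Slc2a1, and -0.21 and -0.25 for Adm.

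Wy-14643, an agonist of the nuclear receptor PPAR alpha, gave the strongest fall of Egln3, together with a rise of Adm. At 540.43 uM the Egln3 controls were 5.84, 6.49 and 6.07 and the treated arrays 4.20, 4.56 and 4.49. The difference was -1.71 (SE 0.12, adjusted p = 2.03e-06), or 3.28-fold lower, and these are the lowest Egln3 values of the series' treated cells. Adm controls were 6.65, 6.93 and 7.13 and treated arrays 7.30, 8.47 and 8.08, a difference of 1.05 (SE 0.17, adjusted p = 0.00102). All treated Adm values lay above all controls and all treated Egln3 values below theirs. Vegfa, Slc2a1 and Hk2 differed by 0.15, -0.07 and -0.04 and did not pass, so 2 of 5 members passed where 16.3% of all probe sets did. At 180.14 uM Egln3 fell by 0.84 (SE 0.12, adjusted p = 0.00266), from 7.20, 6.98 and 6.76 to 6.14, 6.29 and 5.99, in a comparison where 2.71% of all probe sets passed. At 60.05 uM it differed by -0.34 (adjusted p = 0.240). Adm ran the other way at the lower levels, with differences of -0.51 at 180.14 uM and -0.54 at 60.05 uM that did not pass (adjusted p = 0.159 and 0.150).

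Ibuprofen, a cyclooxygenase inhibitor, lowered Egln3 while Vegfa rose. At 920 uM Egln3 was 9.0, 9.21 and 9.02 in the controls and 7.38, 7.86 and 7.93 in the treated arrays, a difference of -1.35 (SE 0.17, adjusted p = 4.95e-04). Vegfa was 7.07, 7.51 and 7.88 in the controls and 8.36, 8.10 and 8.53 in the treated arrays, a difference of 0.84 (SE 0.18, adjusted p = 0.00904). The groups overlapped for neither gene, and 17.1% of all probe sets passed in this comparison. Without replicate 1 the Vegfa difference was 0.62 and did not pass (adjusted p = 0.131). At 306.67 uM Egln3 differed by -0.68 (adjusted p = 0.0653) and at 102 uM by -0.23 (adjusted p = 0.744).

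The 3 largest of the 4 called rises of Egln3 came with nifedipine, piperonylbutoxide and propranolol. Nifedipine, a calcium channel blocker, at 600 uM raised it from 7.69, 7.85 and 7.68 to 8.89, 9.30 and 9.11, by 1.36 (SE 0.19, adjusted p = 0.0100), where 0.796% of all probe sets passed. Piperonylbutoxide, an inhibitor of cytochrome P450 enzymes, at 31.69 uM raised it from 6.80, 6.59 and 7.06 to 7.40, 7.95 and 8.09, by 1.0 (SE 0.15, adjusted p = 0.00490). Propranolol, a beta blocker, at 42.86 uM raised it by 0.77 (SE 0.17, adjusted p = 0.0157), with controls of 7.30, 6.39 and 6.69 and treated arrays of 7.65, 7.56 and 7.5. In each of the 3 all treated arrays lay above all controls. None of the 3 calls held under every alternative. The nifedipine call was lost without the replicate block (adjusted p = 0.333), without replicate 2 (0.337) and without replicate 3 (0.0528), with differences of 1.32 to 1.36. The piperonylbutoxide call was lost without replicate 2, with a difference of 0.82 (adjusted p = 0.205). The propranolol call was lost without the block (0.103), after quantile normalization (0.0535), with the spread pooled over all compounds (0.0989), without replicate 2 (0.203) and without replicate 3 (0.136), with differences of 0.58 to 0.78.

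Other members were called beside Egln3 in some of these comparisons. With piperonylbutoxide the glucose transporter Slc2a1 also rose, by 0.51 (SE 0.12, adjusted p = 0.0448), so 2 of 5 members passed against 2.67% of all probe sets, while Adm differed by -0.14 (adjusted p = 0.646). This Slc2a1 call was lost under 6 of the alternatives. With propranolol Adm rose by 0.71 (SE 0.12, adjusted p = 0.00159), from 7.48, 7.33 and 7.34 to 8.14, 8.09 and 8.05, again 2 of 5 against 4.05%. With nifedipine Adm differed by 0.48 (adjusted p = 0.206) and Slc2a1 by 0.28 (adjusted p = 0.502). NNK, a nitrosamine of tobacco, at 1000 uM raised Egln3 by 0.67 (SE 0.13, adjusted p = 0.0164) as the only member called, where 1.88% of all probe sets passed.

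The remaining falls of Egln3 were smaller. Allyl alcohol at 27.69 uM lowered it by 0.65 (SE 0.13, adjusted p = 0.0105), from 9.48, 9.60 and 9.61 to 9.01, 9.09 and 8.64, where 7.36% of all probe sets passed. Thioacetamide at the middle level lowered it by 0.44 (SE 0.10, adjusted p = 0.0200), where 1.7% passed. At the high level of thioacetamide Egln3 differed by -0.01 and at the low level by -0.16. In both called comparisons, treated and control arrays did not overlap. The allyl alcohol call was lost under 4 of 11 alternatives and the thioacetamide call under 6. For allyl alcohol these were the spread pooled over all compounds, without and with the array median as covariate (adjusted p = 0.0649 and 0.0931), and leaving out replicate 2 or 3 (0.0709 and 0.113). For thioacetamide they were no block (0.0619), pooled spread without and with the covariate (both 1.0) and leaving out any replicate (0.0727 to 0.164).

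Adm rose most with cefuroxime, Wy-14643 (above) and methapyrilene. Cefuroxime, a cephalosporin antibiotic, at 679.09 uM raised it from 7.31, 7.21 and 7.32 to 8.38, 8.30 and 8.47, by 1.10 (SE 0.11, adjusted p = 8.79e-05). The 3 dishes gave nearly the same difference, 1.08, 1.09 and 1.15. Slc2a1 rose with it by 0.43 (SE 0.11, adjusted p = 0.0323) and Egln3 did not pass, so 2 of 5 members passed against 8.28% of all probe sets. At the 2 lower levels of cefuroxime Adm differed by 0.08 and 0.12. Methapyrilene, an antihistamine, raised Adm by 1.0 (SE 0.16, adjusted p = 0.00101) at 44.39 uM and by 0.72 (SE 0.16, adjusted p = 0.0198) at 14.78 uM. At the higher level Slc2a1 rose by 0.54 (SE 0.14, adjusted p = 0.0243), so 2 of 5 members passed against 13.6% of all probe sets, and at 14.78 uM 1 of 5 passed against 5.45%. The Slc2a1 call was lost under 6 of the alternatives for cefuroxime and under 5 for methapyrilene.

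Clonidine at 909 uM raised both secreted factors. Vegfa went from 7.93, 8.13 and 7.14 to 8.71, 8.74 and 8.51, a rise of 0.92 (SE 0.15, adjusted p = 0.00962). Adm went from 8.87, 9.23 and 8.90 to 10.12, 10.18 and 9.46, a rise of 0.92 (SE 0.14, adjusted p = 0.00777), and the first 2 of these are the highest Adm values of any array. The groups did not overlap for either gene, and 2.67% of all probe sets passed in this comparison. Egln3 differed by -0.31 and Slc2a1 by -0.48 there, and neither passed (adjusted p = 0.418 and 0.246). Diethylstilbestrol at 12.15 uM raised Adm by 0.86 (SE 0.17, adjusted p = 0.00521), where 9.03% passed. The clonidine calls were lost when replicate 1 or 2 was left out, and for Vegfa also without replicate 3 (adjusted p from 0.0862 to 0.238 over these). The diethylstilbestrol call was lost without replicate 2, with a difference of 0.63 (adjusted p = 0.218).

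**Figure D4:**
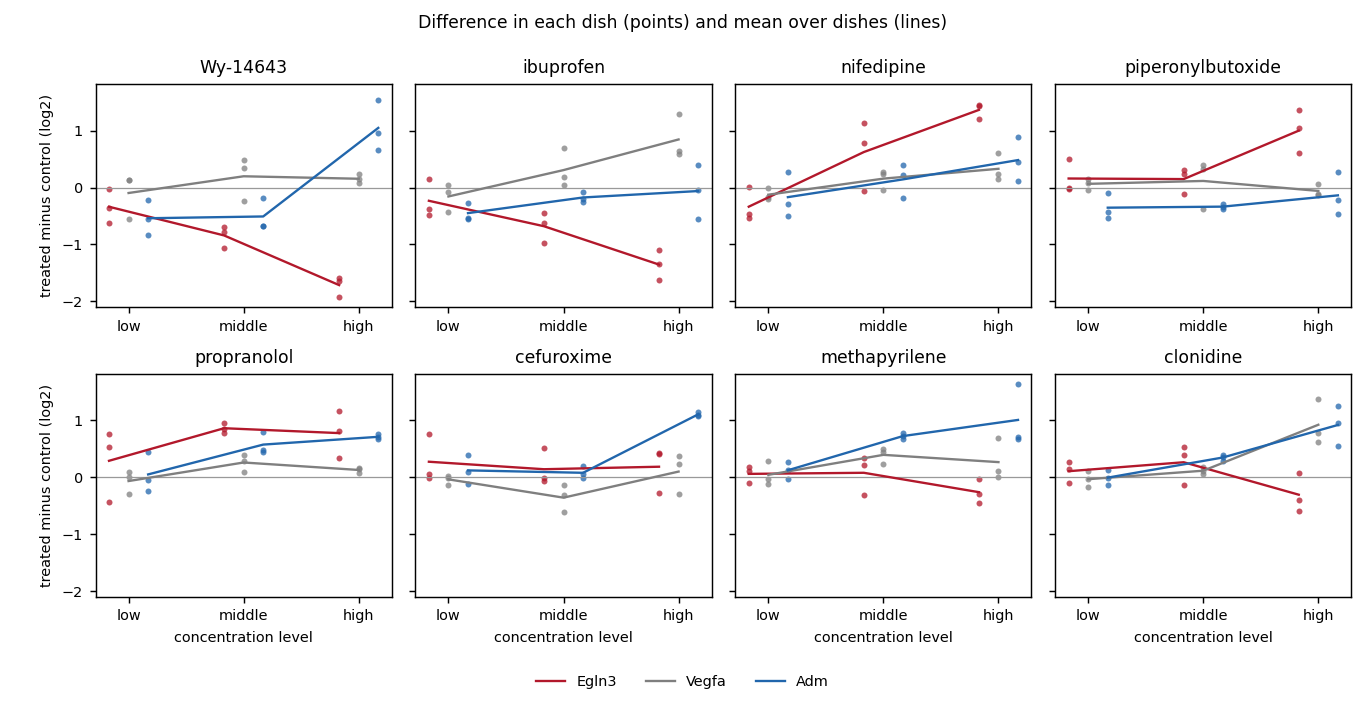
Treated minus control difference (log2) of Egln3, Vegfa and Adm in each dish (points) and its mean (lines) at the low, middle and high level of 8 compounds. Egln3 goes down and Adm up at the high level of Wy-14643, while Egln3 goes down and Vegfa up at that of ibuprofen.

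N-nitrosomorpholine at 152.33 uM was the comparison with most members called, 4 of 5, where 42.8% of all probe sets passed (18.9% as falls and 23.9% as rises). Egln3 fell by 0.63 (SE 0.17, adjusted p = 0.0106), Slc2a1 by 0.56 (SE 0.13, adjusted p = 0.00508) and Adm by 0.36 (SE 0.11, adjusted p = 0.0205), and Hk2 rose by 0.37 (SE 0.12, adjusted p = 0.0255). Hk2 controls (5.66, 5.56 and 6.08) overlapped the treated arrays (5.97, 6.21 and 6.21). In 2 of the 3 dishes the treated and control arrays belonged to different array sets. The 1 remaining dish gave differences of -0.43, -0.30, -0.17 and 0.13, which have no replicate. After quantile normalization the 3 falls were -0.30, -0.25 and -0.04 and none passed.

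Hk2, the glycolytic member, also rose with methylendianiline at 9.81 uM, by 0.79 (SE 0.13, adjusted p = 0.00187), while Adm fell there by 0.79 (SE 0.19, adjusted p = 0.0120), where 19.7% of all probe sets passed. Of the 3 treated arrays 2 lacked the spike-in signal. In the 1 dish that had it, which has no replicate, Hk2 differed by 0.62 and Adm by -0.14. The only fall of Hk2, by 0.30 with 2-acetylaminofluorene at 0.11 uM (SE 0.09, adjusted p = 0.0249), was measured against 3 controls that all lacked the spike-in signal, in a comparison where 31.8% of all probe sets passed. The part of the missing signal in these values was not tested. Vegfa rose with NNK at 88 uM by 0.70 (SE 0.11, adjusted p = 0.0172), where 0.232% passed, and differed by -0.29 and -0.26 at the 2 higher levels. That call was lost under 5 of 11 alternatives: without the replicate block (adjusted p = 0.309), with pooled spread without and with the array median as covariate (both 1.0), and without replicate 2 (0.416) or 3 (0.250).

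Of the 29 calls 6 held under every alternative run: Egln3 with Wy-14643 and with ibuprofen, and Adm with Wy-14643, cefuroxime, methapyrilene and propranolol, all at the high level. The other 23 were each lost under 1 to 6 of the 10 or 11 alternatives run.

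The test of the high minus the low level passed for 5 of 140 member and compound pairs (28 compounds), where 2.46% of all probe sets passed. So small a count does not set the members apart from all probe sets. For Wy-14643 the high minus low difference was -1.38 for Egln3 (SE 0.17, adjusted p = 3.53e-04) and 1.59 for Adm (SE 0.24, adjusted p = 0.00112), where 9.94% of all probe sets passed. For cefuroxime it was 0.98 for Adm (SE 0.15, adjusted p = 0.0124), where 290 of 31042 probe sets passed. For ibuprofen it was -1.12 for Egln3 (SE 0.24, adjusted p = 0.0255), where 1266 passed. For NNK it was -0.96 for Vegfa (SE 0.16, adjusted p = 0.0214), where 86 passed.

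No difference between the compound classes passed for a member. With 1 value per compound at its highest concentration, 0 of 5 members passed in any of the 3 class contrasts by limma, where at most 1 of 31042 probe sets did (0.00322%). At an unadjusted p under 0.05 stood 2 tests, both of Vegfa. Its mean effect was -0.09 ± 0.21 in GT (SD, n = 9), -0.01 ± 0.45 in NG (n = 11, acetaminophen included) and 0.32 ± 0.35 in NC (n = 9), and the difference of GT from NC was -0.41 (SE 0.16, adjusted p = 1.0). A p above the threshold does not show that the classes were alike.

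The effects of the compounds were correlated for some pairs of members. Over the 29 compounds at their highest concentration 3 of 10 pairs passed: Vegfa and Adm (r = 0.607, adjusted p = 0.0061 by permutation; rho = 0.629, adjusted p = 0.0032), Egln3 and Slc2a1 (r = 0.494, adjusted p = 0.0276; rho = 0.542, adjusted p = 0.0130) and Slc2a1 and Adm (r = 0.483, adjusted p = 0.0276; rho = 0.321, adjusted p = 0.293). Egln3 and Adm, which had the highest correlation in the controls, gave r = 0.137 (rho = 0.272, adjusted p = 0.606 and 0.378). At the middle concentration, in contrast, these 2 genes were the most closely correlated pair, with r = 0.712 and rho = 0.739 (adjusted p = 0.0001 for both by permutation, the smallest the permutations can give) and r = 0.668 without the 2 compounds farthest from the median. The same setting also called Egln3 with Slc2a1 (r = 0.574, adjusted p = 0.00585) and Slc2a1 with Adm (r = 0.489, adjusted p = 0.0239), but not Vegfa with Adm (r = 0.337, adjusted p = 0.186). Whether these correlations differ between concentrations or from those of the controls was not tested. By r, all 3 calls were lost without the 4 distant arrays, acetaminophen replicate 1 among them: r was 0.469 for Vegfa and Adm, 0.470 for Egln3 and Slc2a1 (both adjusted p = 0.0537) and 0.258 for Slc2a1 and Adm (adjusted p = 0.440). By rank, the first and the second still passed there, with rho = 0.615 (adjusted p = 0.0059) and 0.571 (adjusted p = 0.0073). Without the 2 compounds farthest from the median of the first gene, r was 0.359, 0.552 and 0.203. Within the 23 compounds of higher array medians r was 0.690, 0.503 and 0.611, and within the other 6 it was 0.616, 0.261 and -0.497. These 23 and 6 were divided by most of their arrays at the highest concentration. The 21 and 8 compounds above were divided by most of their control arrays, so the sets are not the same.

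**Figure D5:**
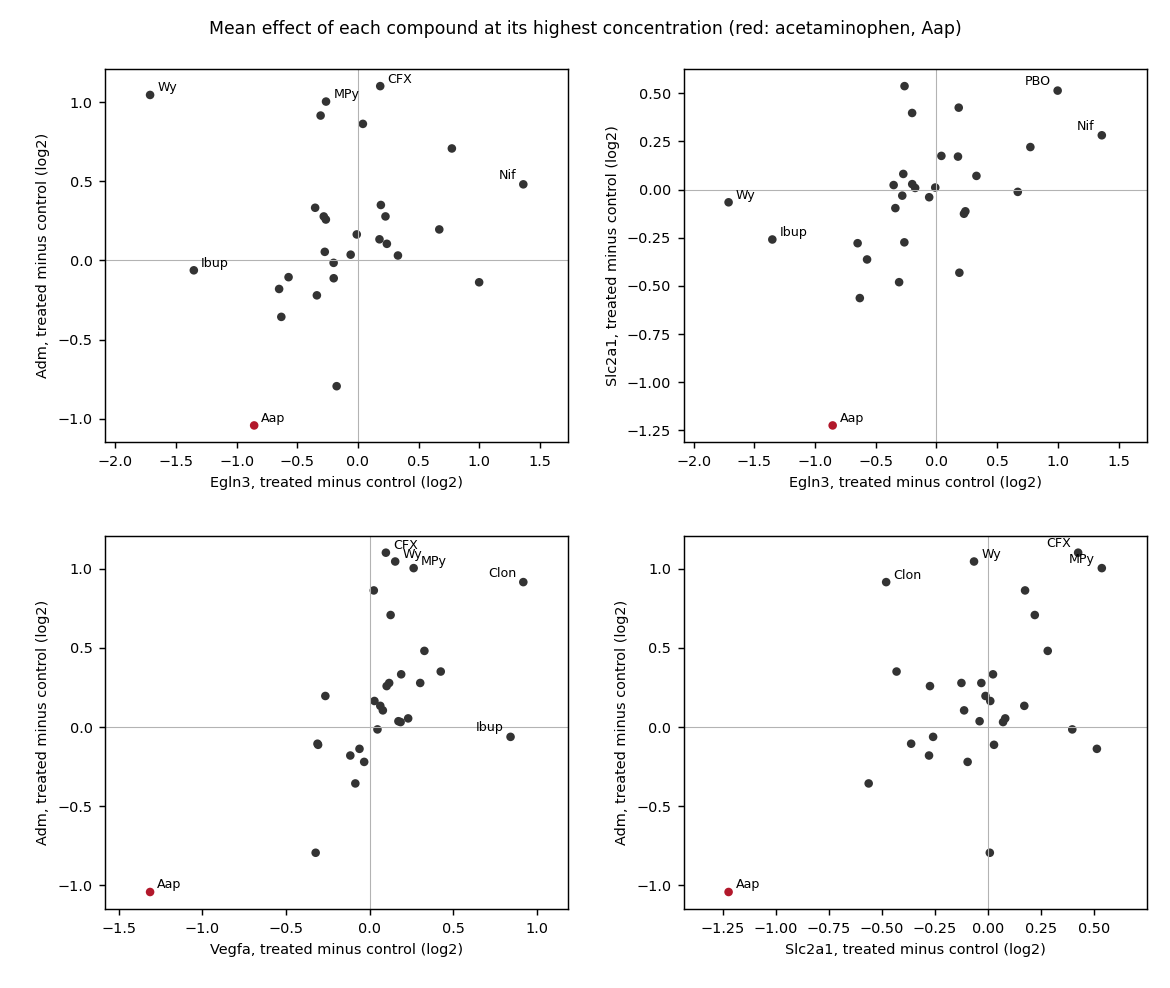
Mean treated minus control difference (log2) of 4 pairs of members, 1 point per compound at its highest concentration, with acetaminophen in red and outlying compounds by their abbreviations (Wy, Wy-14643; Ibup, ibuprofen; Nif, nifedipine; PBO, piperonylbutoxide; CFX, cefuroxime; MPy, methapyrilene; Clon, clonidine). Acetaminophen is lowest in Adm, Slc2a1 and Vegfa, and Wy-14643 lies far to the left in Egln3 but near the top in Adm.

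Egln3 and Adm both passed in 3 comparisons, in the same direction in 2 (propranolol and N-nitrosomorpholine, each at the high level) and in opposite directions in 1 (Wy-14643 high). No comparison had both Egln3 and Vegfa called as rises, and in ibuprofen high, where both passed, they moved apart. In 86 comparisons Egln3 had 10 calls, 4 of them rises, Adm had 9 calls and Vegfa 3. With so few calls, these counts of shared calls do not show whether the genes move together.

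By the correlation of effects over the 29 compounds, the probe sets most like each member were not the other members. They were 1391932_at, 1389075_at and 1368674_at for Egln3 (r = 0.806, 0.795 and 0.790), among which Slc2a1 stood at rank 1092. For Vegfa they were 1388107_at, 1371774_at and 1367732_at (r = 0.832, 0.826 and 0.811), with Adm at rank 985. For Slc2a1 they were 1388318_at, 1373335_at and 1368386_at (r = 0.786, 0.768 and 0.767). For Adm they were 1374204_at, 1392494_at and 1398864_at (r = 0.864, 0.860 and 0.858), and for Hk2 1384733_at, 1378144_at and 1394251_x_at (r = 0.804, 0.802 and 0.793). These values are the highest of 31041 and describe these 29 points only, which share acetaminophen replicate 1.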

How the data were processed

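The values were the log2 expression levels the authors deposited, 1 per probe set and array, made with RMA per the submitters' processing notes. The RMA version is not given in the sources used here, nor is it said whether all arrays were processed jointly. Affymetrix control probe sets, 57 with an AFFX ID, were left out of the tests, and nothing was normalized again except as an alternative. The members and lists were chosen with earlier results of these data known. The lists of other hypoxia genes and of cell type markers, and other probe sets of the 5 genes, could not be used without a table of genes.

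Treated minus control differences of arrays of the same compound, level and replicate number (the dish) were fitted with limma (version 3.58.1, lmFit and eBayes, in R 4.3.3), all levels of a compound in 1 fit, with Benjamini-Hochberg adjustment over all 31042 probe sets within each comparison. A call is an adjusted p under 0.05. For prazosin high and 3-methylcholanthrene high, 2 dishes entered. The dish pairing comes from the design text: over all probe sets same-numbered deviations correlated at a mean of 0.0457 over 256 dishes. T0 arrays were compared with control values averaged per compound and replicate number. Correlations used 100000 permutations, two-sided. Variance shares came from lme4 (version 1.1.37). Comparisons named in the text are, for each member, the 3 largest rises and the 3 largest falls among its calls and any comparison with 3 members called in 1 direction; smaller calls, the classes' unadjusted results and acetaminophen were named after their values were seen. Like probe sets are the 3 with the highest r per member. The fit was tested on simulated data. The alternatives were no block, quantile normalization, pooled spread, a filter on dim probe sets, the array median as covariate with pooled spread, and each replicate left out; those without dishes split by spike-in signal or array set, without distant arrays for T0 and correlations, and with control means per compound were added after seeing the data. Promoter windows are from RefSeq (GRCr8).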

Additional observations from a re-analysis of the deposited data

Results flagged for a closer look

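The effect differed between the high and the low level of 1 compound in 5 of 140 cases, each by the test of that difference. The same test passed for 2.46% of all probe sets. Wy-14643 gave -1.38 for Egln3 and 1.59 for Adm, ibuprofen -1.12 for Egln3, cefuroxime 0.98 for Adm and NNK -0.96 for Vegfa, whose rise stood at the low level.

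The solvent control minus T0 difference was lower among arrays with medians under 5.4 than among the others for all 5 members, by an interaction term: -1.26 for Egln3 (adjusted p = 0.00163), -0.68 for Vegfa (1.08e-05), -1.14 for Slc2a1 (4.50e-07), -0.80 for Adm (0.00239) and -0.52 for Hk2 (2.04e-07). The term passed for 28.4% of all probe sets. Control values of 1 compound resembled each other, which makes these p-values too small. The part of the array medians in these differences was not tested.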

How the results depend on the processing

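There were 29 member calls. Each alternative gave its own total: 24 without the replicate block (23 of them among the 29), 28 after quantile normalization (24 among the 29), 27 with pooled spread (18), 32 after the filter on dim probe sets (29), 25 with pooled spread and the array median as covariate together (15), and 12 to 24 with 1 replicate left out (12 without replicate 2). The fit without the block kept the direction of every call. For N-nitrosomorpholine high Adm turned to 0.0565 with pooled spread and the array median as covariate, and Adm control minus T0 turned to -0.33 on lower-median arrays alone; the cause was not tested. High minus low calls numbered 5, but 8 after quantile normalization, 12 after the dim filter, in which fewer probe sets were tested, and 4 to 7 with 1 replicate left out. By r, 3 pairs of effects passed; 1 did after quantile normalization (Vegfa and Adm), 0 without the 4 distant arrays (2 by rank), 3 at the middle concentration (Egln3 and Adm in place of Vegfa and Adm), 4 over the 23 compounds of higher medians and 0 over the 6 of lower medians, where Slc2a1 and Adm turned to -0.50; 2 to 4 passed with 1 replicate left out. Class contrasts gave 0 calls and T0 3 or 4 under each alternative, though the T0 calls were not always of the same members. On the arrays of higher medians alone they were Slc2a1, Hk2 and, as a rise, Adm. With control values averaged per compound they were Vegfa, Slc2a1 and Hk2. With 3 dishes per comparison, small differences could be missed, and no detection limit is given for any member.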
